A study of Mus musculus with 5 samples.

Results

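Chemokines decide which leukocytes enter the liver, and 10 of their genes were followed here from the cell lineage that carried their RNA to the diet of the mice. These were Ccl2, Ccl7, Ccl5, Ccl24, Cxcl1, Cxcl9, Cxcl10, Cxcl12, Cxcl16 and Cx3cl1, taken by symbol from the 32285 genes of each deposited matrix. The livers came from male wild-type C57BL6/J mice. They stayed on regular chow or were switched, at an age of 10 to 12 weeks and for 5 months, to a MASH diet, named for the metabolic dysfunction-associated steatohepatitis it induces, with 2% cholesterol and with fat and fructose giving 40% and 20% of its kcal. RNA of single nuclei was counted in 3 Chow libraries and 2 MASH libraries, made from frozen tissue by homogenising it, sorting the nuclei and barcoding them in droplets. The labels do not say whether each library is a separate mouse or a pool, so p-values below measure only the spread between these libraries. The comparison of the diets asked which lineage makes each chemokine in a healthy liver and whether that source is another one in MASH.

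Chemokines are small secreted proteins that bind to G protein-coupled receptors on leukocytes and set up the gradients along which these cells leave the blood. The family is split by the spacing of its first cysteines into CC ligands, which act mostly on monocytes, T cells and eosinophils, and CXC ligands, which act on neutrophils or, for another group, on T cells. Cxcl16 and Cx3cl1 differ from the rest in that they are made as membrane proteins with the chemokine domain on a mucin stalk, and can be cut loose by the proteases Adam10 and Adam17. In steatohepatitis, chemokines from hepatocytes, stellate cells, the sinusoidal endothelium and resident macrophages are known to recruit the monocytes that become inflammatory macrophages.

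The libraries held 35612373, 44788883 and 49137377 unique molecular identifiers (UMIs, 1 for each RNA molecule counted) for Chow replicates 1 to 3, and 37312619 and 37250043 for the MASH replicates. Nuclei were assigned to 5 lineages from clusters made without the chemokine and receptor genes. These were 32658 hepatocyte-like, 3344 stellate-like, 2464 endothelial-like, 1710 cholangiocyte-like and 4472 immune-like nuclei, the last pooling macrophage-, dendritic-, T-, B- and neutrophil-like nuclei. The defining markers stood where they should. Hnf4a was at 161 to 398 UMIs per 1000000 UMIs of the sum (CPM) in hepatocyte-like nuclei, Reln or Ecm1 at 1248 to 4135 CPM in stellate-like, Ptprb at 1245 to 2800 CPM in endothelial-like, Pkhd1 at 656 to 1596 CPM in cholangiocyte-like and Ptprc at 887 to 1503 CPM in immune-like nuclei. Only Hnf4a overlapped between lineages, reaching 162 CPM outside hepatocyte-like nuclei. Cholangiocyte-like nuclei numbered 18, 9 and 44 in the chow libraries, against 317 and 1322 in MASH, so their chow values rest on few molecules. Of 56742 distinct barcodes, 337 occurred in more than 1 library. The median share of mitochondrial UMIs per barcode was 1.15%, 3.55% and 1.24% in the chow libraries and 7.42% and 0.892% in MASH. A limit of 5% mitochondrial UMIs, used as an alternative below, left 4450 of 11508 nuclei of MASH replicate 1. Among them were 220 of 885 stellate-like and 211 of 1594 macrophage-like nuclei. In Chow replicate 2 it left 19 of 180 stellate-like nuclei.

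Chow replicate 3 stood apart for these genes. It alone held the highest of the 3 chow levels in 38 of 50 pairs of a gene with all nuclei or with a lineage other than cholangiocyte-like, among them 9 of 10 genes in hepatocyte-like nuclei and 8 of 10 in stellate-like nuclei. The summed level of 10 acute-phase genes in its hepatocyte-like nuclei was 19310 CPM, against 2765 and 1464 CPM in Chow replicates 1 and 2 and 1365 and 1171 CPM in MASH. In stellate-like nuclei the summed level of 12 NF-kB response genes was 2608 CPM in Chow replicate 3, against 983 and 617 CPM in the other chow libraries and 881 and 1005 CPM in MASH. Neutrophil-like nuclei, by contrast, were most frequent in Chow replicate 1, at 2.447% of nuclei against 0.00864% and 0.1798% in Chow replicates 2 and 3. The part of these differences in the chemokine levels was not tested, and results that rest on Chow replicate 3 are given with and without it.

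**Figure D1:**
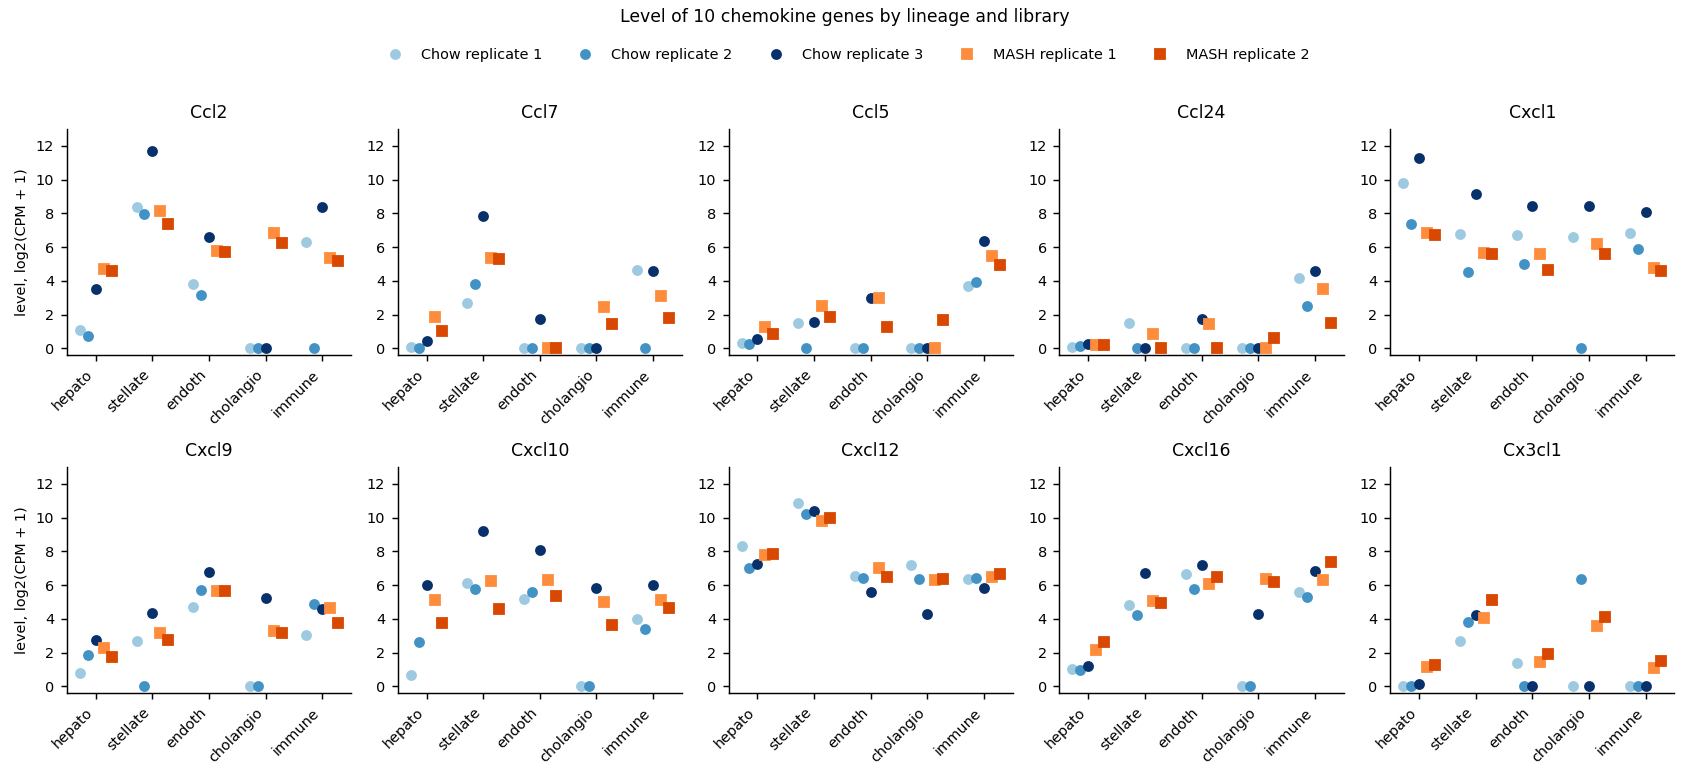
Level of the 10 chemokine genes in the 5 lineages, 1 panel for each gene, as log2(CPM + 1) on the vertical axis. Circles are the 3 Chow libraries (light to dark blue for replicates 1 to 3) and squares the 2 MASH libraries (orange). Ccl2 and Cxcl12 peak in stellate-like nuclei, Cxcl1 in hepatocyte-like nuclei and Cxcl9 in endothelial-like nuclei, and the dark blue circle of Chow replicate 3 is often the highest chow point.

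Cxcl1 came almost wholly from hepatocyte-like nuclei. It binds Cxcr2 and draws neutrophils, and its gene lies on chromosome 5 at 90891241-90893115 (GRCm38, plus strand). Hepatocyte-like nuclei held 99.3%, 99.5% and 99.4% of its UMIs in named nuclei in the chow libraries and 92.4% and 90.7% in MASH. Of the UMIs of all genes in named nuclei, these nuclei held 94.4%, 97.9% and 96.5% in chow and 80.3% and 78.4% in MASH. Their level was 886, 162 and 2518 CPM in Chow replicates 1 to 3 and 115 and 104 CPM in the MASH replicates. Each MASH value lay below the 3 chow values, which differed 15.6-fold from lowest to highest. The group levels of 1189 CPM ± 1207 (SD, n = 3) and 109 CPM ± 7.90 (SD, n = 2) gave a log2 fold change of -3.91 (SE 1.18), which missed the threshold (adjusted p = 0.0689, edgeR quasi-likelihood test with Benjamini-Hochberg adjustment over 14892 genes). Without Chow replicate 3 it was -2.41 and did not pass either (edgeR adjusted p = 0.0536). In all nuclei, where fewer cells of a type and less RNA per cell cannot be told apart, it was -4.08 (SE 1.18, edgeR adjusted p = 0.0545), and without Chow replicate 3 it was -2.53 and passed (edgeR adjusted p = 0.0467).

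The 250 bases before the transcription start of Cxcl1 (RefSeq, GRCm38.p6, chr5:90890995-90891244, plus strand) are shown because the gene was high in the library with high NF-kB response genes. In hepatocyte-like nuclei the summed level of these genes was 293, 274 and 592 CPM in chow and 480 and 494 CPM in MASH. The MASH sums thus lay above those of Chow replicates 1 and 2, while Cxcl1 was lowest in MASH. A link between the motif and the Cxcl1 level was not tested. Capitals mark an NF-kB motif that was matched on both strands, 71 and 70 bases before the start. Such a match was present in 1281 of 32851 promoter windows of that length, or 3.899%. No interferon-stimulated response element was found in this window.
Cxcl1: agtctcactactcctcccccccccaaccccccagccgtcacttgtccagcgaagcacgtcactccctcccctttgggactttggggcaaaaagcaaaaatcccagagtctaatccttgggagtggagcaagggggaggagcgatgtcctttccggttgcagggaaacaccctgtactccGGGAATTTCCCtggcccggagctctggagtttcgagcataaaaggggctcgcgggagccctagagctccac

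Within hepatocyte-like nuclei the levels of Cxcl1 differed between the main clusters. In the cluster led by Sds and Hal, genes of amino acid breakdown known from periportal hepatocytes, Cxcl1 was at 1515, 252 and 2795 CPM in chow and 189 and 187 CPM in MASH. In the cluster led by Slc1a2 and Cyp2c38, which also holds the pericentral genes Tbx3 and Lgr5 among its leading genes, it was at 302, 75.8 and 2156 CPM in chow and 57.5 and 53.6 CPM in MASH. The first cluster was higher in each of the 5 libraries, and the ratio of the clusters was closest to 1 in Chow replicate 3. Outside hepatocyte-like nuclei the gene was seen at a fraction of the hepatocyte level, 10.6% to 35.6% in the stellate-, endothelial- and immune-like nuclei of the chow libraries and 22.5% to 46.1% in those of MASH. Droplets take up RNA that is free in the suspension, and the 8 hepatocyte marker genes stood in the stellate-, endothelial- and immune-like nuclei at medians of 23.4% to 97.7% of their own hepatocyte level. Cxcl1 lay under that median in these lineages and libraries, except in the stellate-like nuclei of MASH replicate 2 (46.1% against 32.4%). In macrophage-like nuclei Cxcl1 was at 146, 43.4 and 296 CPM in chow and 26.0 and 23.4 CPM in MASH, or 11.8% to 26.8% of the hepatocyte level, under the median of the hepatocyte markers in each library (34.1% to 87.1%). It was called lower there in MASH (log2 fold change -2.71, SE 0.56, edgeR adjusted p = 0.0393). Without Chow replicate 3 that difference was -1.81 (edgeR adjusted p = 0.317), and without MASH replicate 2 it missed the threshold as well (edgeR adjusted p = 0.0978). The macrophage-like nuclei of the diets lay in different clusters. In chow 95 of 133, 105 of 118 and 173 of 205 were in the cluster led by Cd163 and Clec4f, genes of resident Kupffer cells, and in MASH 1592 of 1594 and 1058 of 1058 were in the one led by Gpnmb, Mmp12 and Ccr2. Cxcl1 was found in 53.2%, 28.3% and 97.0% of hepatocyte-like chow nuclei and in 19.6% and 17.3% of those in MASH, at median depths of 3147 to 4262 UMIs. T-like nuclei, which should lack it, had a Cxcl1 UMI in 18.6%, 9.38% and 25.6% (chow) and 4.0% and 2.54% (MASH) at median depths of 815 to 1135.5 UMIs. With every nucleus thinned to 500 UMIs, the shares were 24.7%, 7.35% and 66.2% in hepatocyte-like chow nuclei and 4.81% and 4.59% in MASH, and 13.6%, 4.98% and 12.1% (chow) and 1.82% and 1.66% (MASH) in T-like nuclei.

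**Figure D2:**
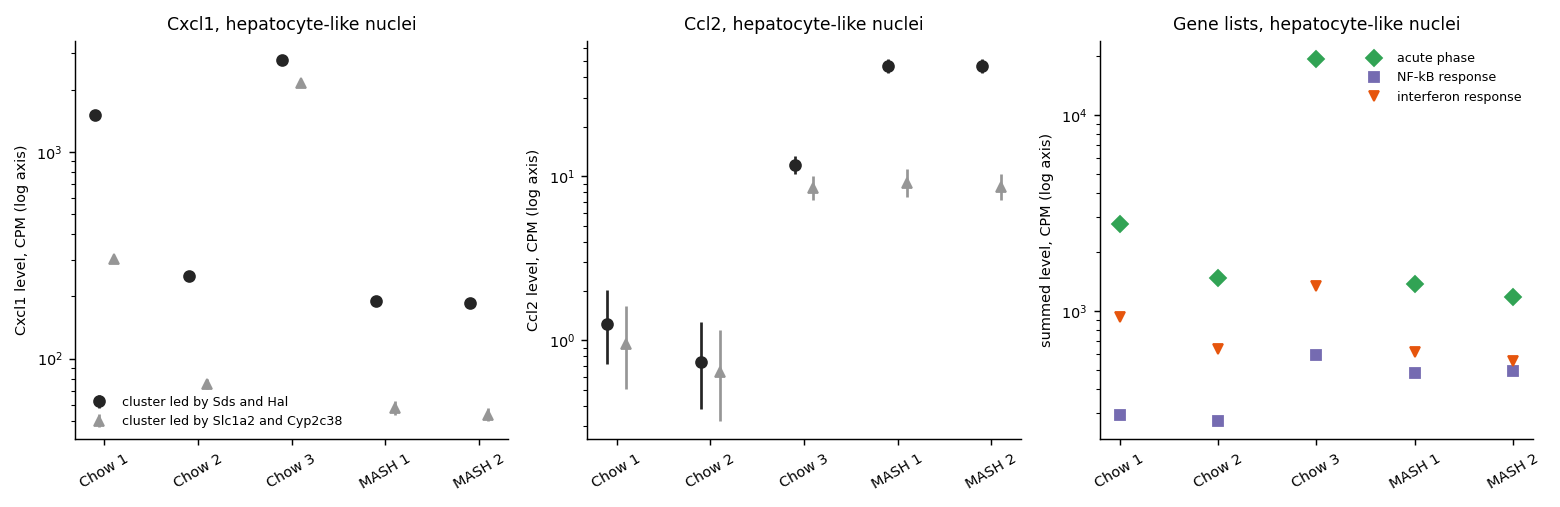
Cxcl1 and Ccl2 in CPM (log axes) in each library, with 95% Poisson intervals, for the hepatocyte-like cluster led by Sds and Hal (black circles) and the cluster led by Slc1a2 and Cyp2c38 (grey triangles), beside the summed CPM of the acute-phase, NF-kB and interferon response lists in hepatocyte-like nuclei. Cxcl1 is higher in the cluster led by Sds and Hal in every library, and Ccl2 reaches 46.9 and 47.0 CPM there in MASH against 9.12 and 8.62 CPM in the other cluster.

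Ccl2 and Ccl7 are ligands of Ccr2, the receptor that brings monocytes from blood into tissue, and lie next to each other on chromosome 11 (82035571-82037453 and 82045712-82047525, plus strand). Ccl2 overlaps the annotated gene Gm17268 on the opposite strand, and whether the counting used strand is not given in the sources used here. In chow, stellate-like nuclei were the main source of Ccl2 and held 72.7%, 69.1% and 74.2% of its UMIs in named nuclei. In MASH they held 34.0% and 29.8%, while hepatocyte-like nuclei held 48.3% and 48.2%, against 11.5%, 28.4% and 17.8% in chow. For the stellate share each MASH value was under the chow values, and for the hepatocyte share each was above them. Shares follow the number of nuclei as well as the level per nucleus, and stellate-like nuclei numbered 507, 180 and 395 in the chow libraries and 885 and 1377 in MASH. Of the UMIs of all genes in named nuclei, stellate-like nuclei held 1.93%, 0.673% and 1.25% in chow and 5.08% and 6.85% in MASH. Hepatocyte-like nuclei held 94.4%, 97.9% and 96.5% of them in chow and 80.3% and 78.4% in MASH.

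For Ccl2 the order of the diets depended on the lineage. Stellate-like nuclei stood at 339, 245 and 3327 CPM in chow and 284 and 163 CPM in MASH. These nuclei lay in different clusters, 410 of 507 and 176 of 180 of those in Chow replicates 1 and 2 in one led by Ecm1, Dcn and Reln, 389 of 395 in Chow replicate 3 in one whose leading genes include Ccl2 and Ccl7 themselves beside Dcn and Pdgfra, and 882 of 885 and 1376 of 1377 in MASH in one with the collagen genes Col3a1 and Col1a1 among its leading genes. The chow libraries differed 13.6-fold, the MASH values overlapped the lower chow values, and the log2 fold change was -2.64 (SE 1.07, edgeR adjusted p = 0.323) with all libraries and -0.35 without Chow replicate 3. Hepatocyte-like nuclei stood at 1.10, 0.692 and 10.3 CPM in chow and 25.5 and 23.0 CPM in MASH. Both MASH values lay above all chow values, also above Chow replicate 3. The log2 fold change of 2.06 (SE 1.09) did not pass with all libraries (edgeR adjusted p = 0.228), and without Chow replicate 3 it was 4.56 and passed (edgeR adjusted p = 0.00136). Inside hepatocyte-like nuclei the cluster led by Sds and Hal held 1.26, 0.742 and 11.7 CPM of Ccl2 in chow and 46.9 and 47.0 CPM in MASH. The cluster led by Slc1a2 and Cyp2c38 held 0.948, 0.645 and 8.53 CPM in chow and 9.12 and 8.62 CPM in MASH. The clusters were thus close in chow, and in both MASH libraries the first was higher.

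Ccl2 in hepatocyte-like nuclei was set beside the genes that mark stellate cells, whose level there gives the stellate RNA found outside its source. In the chow libraries the level of Ccl2 in hepatocyte-like nuclei was 0.323%, 0.282% and 0.311% of the stellate level, within the range of the 10 stellate marker genes in each library (lowest 0.0648%, highest 1.11%). In MASH it was 8.99% and 14.1%, above the highest of the stellate markers, which reached 3.52% and 4.17%. Ccl7 stood at 6.56% and 2.63% and Cx3cl1 at 7.59% and 4.24% of the stellate level in the MASH libraries. Of these, Ccl7 in MASH replicate 2 lay inside the marker range and the other values above it. Ccl2 was found in 4.58% and 4.67% of hepatocyte-like nuclei in MASH and in 0.432%, 0.219% and 4.33% in chow before thinning, and in 1.10% and 1.04% against 0.0543%, 0.0421% and 0.583% after thinning to 500 UMIs. The exact two-sided permutation test of the thinned shares gave p = 0.2, where the smallest that 3 against 2 libraries allow is 0.1.

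**Figure D3:**
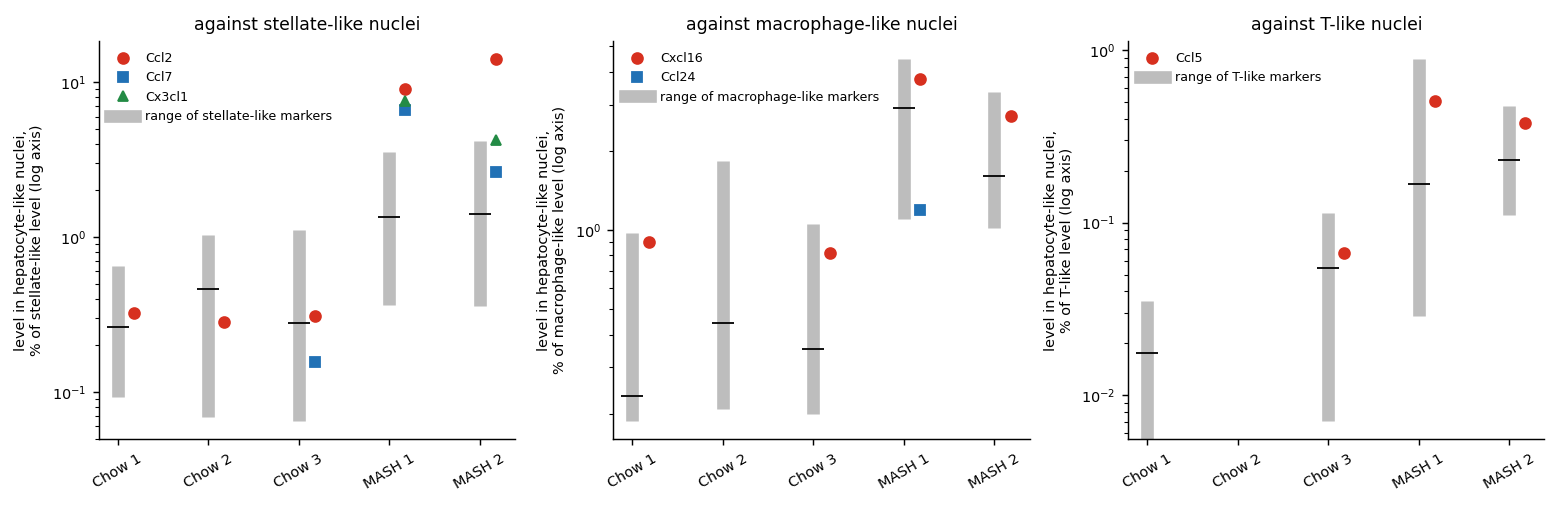
Level in hepatocyte-like nuclei as a percent of the level in the source lineage (log axis) for Ccl2, Ccl7 and Cx3cl1 against stellate-like, Cxcl16 and Ccl24 against macrophage-like and Ccl5 against T-like nuclei, in each library. Grey bars span the marker genes of the source lineage measured in the same way and the black tick is their median. Ccl2 lies inside the bar in the 3 chow libraries and above it in both MASH libraries, at 8.99% and 14.1%.

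Immune-like and cholangiocyte-like nuclei added smaller amounts of Ccl2. Immune-like nuclei stood at 78.1, 0 and 327 CPM in chow and 40.6 and 35.2 CPM in MASH. Chow replicate 2 had no UMI there and MASH lay between the chow values. Macrophage-like nuclei alone gave 106, 0 and 478 CPM in chow and 40.0 and 37.4 CPM in MASH (log2 fold change -2.37, SE 0.89, edgeR adjusted p = 0.295). In cholangiocyte-like nuclei no Ccl2 UMI was counted in any chow library, while MASH replicates 1 and 2 held 52 and 136 UMIs, or 114 and 75.4 CPM. Against the level that 3 UMIs would give over the pooled chow nuclei, the pooled MASH level of 83.2 CPM was at least 2.43-fold higher. The 95% intervals and floors used here cover counting error only.

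Ccl7 had 505 UMIs in the 5 libraries. Stellate-like nuclei carried 3, 3 and 117 of its UMIs in chow (5.53, 13.1 and 229 CPM) and 52 and 73 in MASH (40.8 and 37.8 CPM). Chow replicate 3 was 41.4-fold above Chow replicate 1 and MASH lay in between. Hepatocyte-like nuclei stood at 0.0378, 0.0301 and 0.355 CPM in chow and 2.68 and 0.996 CPM in MASH, from 1, 1 and 14 UMIs against 54 and 22. The MASH values lay above all chow values, and the log2 fold change of 3.16 (SE 1.02) missed the threshold (edgeR adjusted p = 0.0807). It passed without Chow replicate 3 (edgeR adjusted p = 0.0129), where each chow library held 1 UMI and the size is not given. Stellate-like nuclei with a Ccl2 UMI also held Ccl7 more often than the others did, in 3.77%, 0% and 15.7% against 0%, 1.92% and 6.14% in chow and in 13.6% and 19.1% against 1.37% and 1.19% in MASH. Chow replicate 2 was the exception. In Chow replicate 1, immune-like nuclei held 71.4% of the Ccl7 UMIs in named nuclei, among which neutrophil-like nuclei had 10 UMIs.

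Ccl5, which attracts T cells and monocytes and is made by T and natural killer cells, marked T-like nuclei. It lies on chromosome 11 at 83525778-83530518 (minus strand). T-like nuclei held 89.5, 70.1 and 718 CPM in chow and 285 and 216 CPM in MASH, from 5, 3 and 32 UMIs against 96 and 42. The MASH values fell between the chow values (log2 fold change 0.10, SE 0.66, edgeR adjusted p = 0.967). In all nuclei Ccl5 was at 0.601, 0.352 and 1.69 CPM in chow and 5.96 and 3.29 CPM in MASH. Here the MASH values exceeded the chow values, at a log2 fold change of 1.94 (SE 0.78, edgeR adjusted p = 0.125), or 3.06 without Chow replicate 3, which passed (edgeR adjusted p = 0.0252). T-like nuclei numbered 59, 32 and 43 in the chow libraries and 300 and 197 in MASH. The low hepatocyte-like levels of Ccl5, 0.227, 0.211 and 0.481 CPM in chow and 1.44 and 0.815 CPM in MASH (log2 fold change 1.47, SE 0.65, edgeR adjusted p = 0.164), were 0.504% and 0.377% of the T-like level in MASH, inside the range of T cell markers in those libraries (0.0288% to 0.890% and 0.110% to 0.474%).

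Cxcl9 and Cxcl10 are interferon-induced ligands of Cxcr3, the receptor of activated T cells, and are neighbours on chromosome 5 (92321347-92328079 and 92346638-92348889, minus strand). Cxcl10 overlaps Art3 on the plus strand. The level of Cxcl9 was highest in endothelial-like nuclei, at 24.7, 50.8 and 110 CPM in chow and 49.1 and 48.8 CPM in MASH. MASH lay within the chow spread. Immune-like nuclei held 7.32, 28.8 and 23.0 CPM of Cxcl9 in chow and 23.9 and 12.4 CPM in MASH, and hepatocyte-like nuclei 0.756, 2.62 and 5.80 CPM against 3.82 and 2.31 CPM. Through their number, hepatocyte-like nuclei still gave 38.6% to 82.1% of the Cxcl9 UMIs in named nuclei.

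Cxcl10 in hepatocyte-like nuclei depended on the chow library. The levels there were 0.605, 5.24 and 63.7 CPM in chow, a 105-fold range, and 33.5 and 12.6 CPM in MASH. The log2 fold change was -0.54 (SE 1.53, edgeR adjusted p = 0.832) and turned to 2.69 without Chow replicate 3 (edgeR adjusted p = 0.0956). Stellate-like nuclei stood at 68.2, 52.5 and 600 CPM in chow and 74.6 and 23.3 CPM in MASH, and endothelial-like nuclei at 34.6, 46.9 and 274 CPM against 77.2 and 40.6 CPM. In each of these lineages Chow replicate 3 was the highest library. The summed level of the 17 interferon response genes in stellate-like nuclei was 2727 CPM in Chow replicate 3, 1514 and 1108 CPM in the other chow libraries and 1387 and 1248 CPM in MASH. In hepatocyte-like nuclei it was 928, 641 and 1339 CPM in Chow replicates 1 to 3 and 619 and 553 CPM in MASH. There the MASH sums were the lowest, while Cxcl10 in MASH lay above Chow replicates 1 and 2.

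Much of Cxcl10 came from few nuclei. The 10 nuclei with most Cxcl10 held 82.2%, 57.1% and 20.7% of its UMIs in the chow libraries and 24.4% and 44.7% in MASH, with up to 133 UMIs in 1 nucleus. A small cluster that was given no lineage, led by Rsad2, Cmpk2, Ifit3, Ifit1, Cxcl10 and Isg15, all known as interferon-stimulated genes, held 21.3% of all Cxcl10 UMIs and 17.8% of all Cxcl9 UMIs. Its nuclei stood at 6927, 65.4 and 6201 CPM of Cxcl10 in chow and 2769 and 4199 CPM in MASH. Chow replicate 2, with 470 nuclei in the cluster against 18, 13, 13 and 7 in the other libraries, was the low one. Cxcl10 was not among the genes used to form clusters.

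The windows before the start of these neighbouring genes differed, and that of Cxcl10 is shown because the gene was high in the nuclei led by interferon-stimulated genes (RefSeq, GRCm38.p6, chr5:92348890-92349139, minus strand). Capitals mark, from left to right, an interferon-stimulated response element (GAAA, any 2 bases, GAAA, on either strand) 213 bases before the start and NF-kB motifs 159 and 103 bases before it. The response element was present in 2.977% of the 32851 windows. The window of Cxcl9 (chr5:92328080-92328329, minus strand) held no match to either motif, nor to the gamma-activated site TTCNNNGAA, which 7.02% of the windows hold. A match describes letters and not a bound site.
Cxcl10: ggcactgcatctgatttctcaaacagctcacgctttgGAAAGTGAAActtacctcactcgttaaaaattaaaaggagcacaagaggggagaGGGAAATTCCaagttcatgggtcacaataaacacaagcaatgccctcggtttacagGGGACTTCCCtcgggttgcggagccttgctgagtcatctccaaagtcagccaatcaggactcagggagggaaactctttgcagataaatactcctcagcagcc

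Ccl24, which acts on eosinophils through Ccr3, had 105 UMIs in the 5 libraries. Its gene lies on chromosome 5 at 135569937-135573049 (minus strand). Macrophage-like nuclei were its clearest site, at 39.9, 7.22 and 27.5 CPM in chow (6, 1 and 8 UMIs) and 12.5 and 2.34 CPM in MASH (25 and 3 UMIs). The diets overlapped and the counts were too low for a test in that lineage. In all nuclei Ccl24 was at 0.327 to 0.727 CPM in chow and at 1.16 and 0.284 CPM in MASH.

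Cxcl12 had its highest level in stellate-like nuclei and most of its UMIs in hepatocyte-like nuclei, which were far more numerous. It binds Cxcr4 and the scavenger receptor Ackr3, keeps lymphocytes and progenitor cells in place, and lies on chromosome 6 at 117168535-117181367 (plus strand). Stellate-like nuclei held 1884, 1195 and 1363 CPM in chow and 881 and 1016 CPM in MASH. No MASH value reached the chow values (25.6% of the genes tested in stellate-like nuclei did not overlap), with group levels of 1481 CPM ± 359 (SD, n = 3) and 949 CPM ± 96.0 (SD, n = 2), but the log2 fold change of -0.67 (SE 0.42) did not pass (edgeR adjusted p = 0.533). Hepatocyte-like nuclei stood at 316, 129 and 149 CPM in chow and 218 and 233 CPM in MASH, within the chow range (log2 fold change -0.08, SE 0.35, edgeR adjusted p = 0.888). They gave 88.3%, 93.2% and 88.8% of Cxcl12 UMIs in the chow libraries and 75.0% and 68.8% in MASH. In each library this was under their share of the UMIs of all genes, 94.4%, 97.9% and 96.5% in chow and 80.3% and 78.4% in MASH. The stellate share of Cxcl12 was 19.1% and 26.2% in MASH against 5.94% to 10.8% in chow. Chow replicate 3 was not the highest library for this gene in stellate-like nuclei, where the chow levels differed by 1.58-fold.

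Cxcl16 binds Cxcr6 on T and natural killer T cells, and was spread over macrophage-, endothelial- and, in MASH, cholangiocyte-like nuclei. Its gene (chromosome 11, 70453983-70459984, minus strand) overlaps Zmynd15 on the plus strand. In all nuclei it rose from 6.61, 2.94 and 6.55 CPM in chow to 18.0 and 25.5 CPM in MASH. The groups did not overlap, and the log2 fold change of 1.62 (SE 0.41) passed (edgeR adjusted p = 0.0391). Leaving out MASH replicate 1 or 2 lost the call (edgeR adjusted p = 0.116 and 0.181). In hepatocyte-like nuclei it rose from 1.02, 0.993 and 1.29 CPM to 3.52 and 5.25 CPM (log2 fold change 1.62, SE 0.43, edgeR adjusted p = 0.04998), with p just under the threshold and lost without MASH replicate 1 or 2 (edgeR adjusted p = 0.221 and 0.374).

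Within the lineages of its highest levels the diets overlapped. Macrophage-like nuclei, which lay in different clusters by diet as given for Cxcl1, stood at 113, 57.8 and 158 CPM in chow and 93.4 and 194 CPM in MASH (log2 fold change 0.33, SE 0.41, edgeR adjusted p = 0.851). Endothelial-like nuclei stood at 101, 54.7 and 145 CPM in chow and 64.9 and 86.7 CPM in MASH (log2 fold change -0.45, SE 0.39, edgeR adjusted p = 0.792). Immune-like nuclei held 15.6%, 13.6% and 22.5% of Cxcl16 UMIs in the chow libraries against 52.4% and 42.6% in MASH, and macrophage-like nuclei numbered 133, 118 and 205 against 1594 and 1058. Cholangiocyte-like nuclei held 0, 0 and 1 Cxcl16 UMI in chow and 37 and 128 in MASH (80.9 and 71.0 CPM). The hepatocyte-like level of Cxcl16 was 3.77% and 2.71% of the macrophage-like level in MASH, inside the range of macrophage markers in the same nuclei (1.10% to 4.48% and 1.02% to 3.37%).

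Cx3cl1, or fractalkine, the ligand of Cx3cr1 on monocytes and macrophages, showed the largest increase of the set in all nuclei. Its gene lies on chromosome 8 at 94772009-94782427 (plus strand). It rose from 0.190, 0.126 and 0.388 CPM in chow (6, 5 and 17 UMIs) to 1.93 and 4.99 CPM in MASH (63 and 158 UMIs). The groups did not overlap and the log2 fold change was 3.37 (SE 0.71, edgeR adjusted p = 0.0248). Without MASH replicate 2 it was 2.79 and did not pass (edgeR adjusted p = 0.148). In hepatocyte-like nuclei 0, 0 and 4 UMIs were counted in chow and 24 and 32 in MASH (1.19 and 1.45 CPM), and the gene was called higher there (log2 fold change 4.56, SE 0.99, edgeR adjusted p = 0.0289). That call was lost without MASH replicate 1 or 2 (edgeR adjusted p = 0.153 and 0.179). Its level was highest in stellate-like nuclei, at 5.53, 13.1 and 17.6 CPM in chow and 15.7 and 34.2 CPM in MASH, apart from 1 UMI among the 9 cholangiocyte-like nuclei of Chow replicate 2. The diets overlapped there, and the UMIs were too few for the test. Cholangiocyte-like nuclei gave 9.43% and 22.0% of its UMIs in MASH. Stellate-like nuclei numbered 507, 180 and 395 in chow and 885 and 1377 in MASH. Cholangiocyte-like nuclei numbered 18, 9 and 44 in chow and 317 and 1322 in MASH. The part of these numbers in the rise over all nuclei was not tested. No nucleus held more than 3 Cx3cl1 UMIs.

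**Figure D4:**
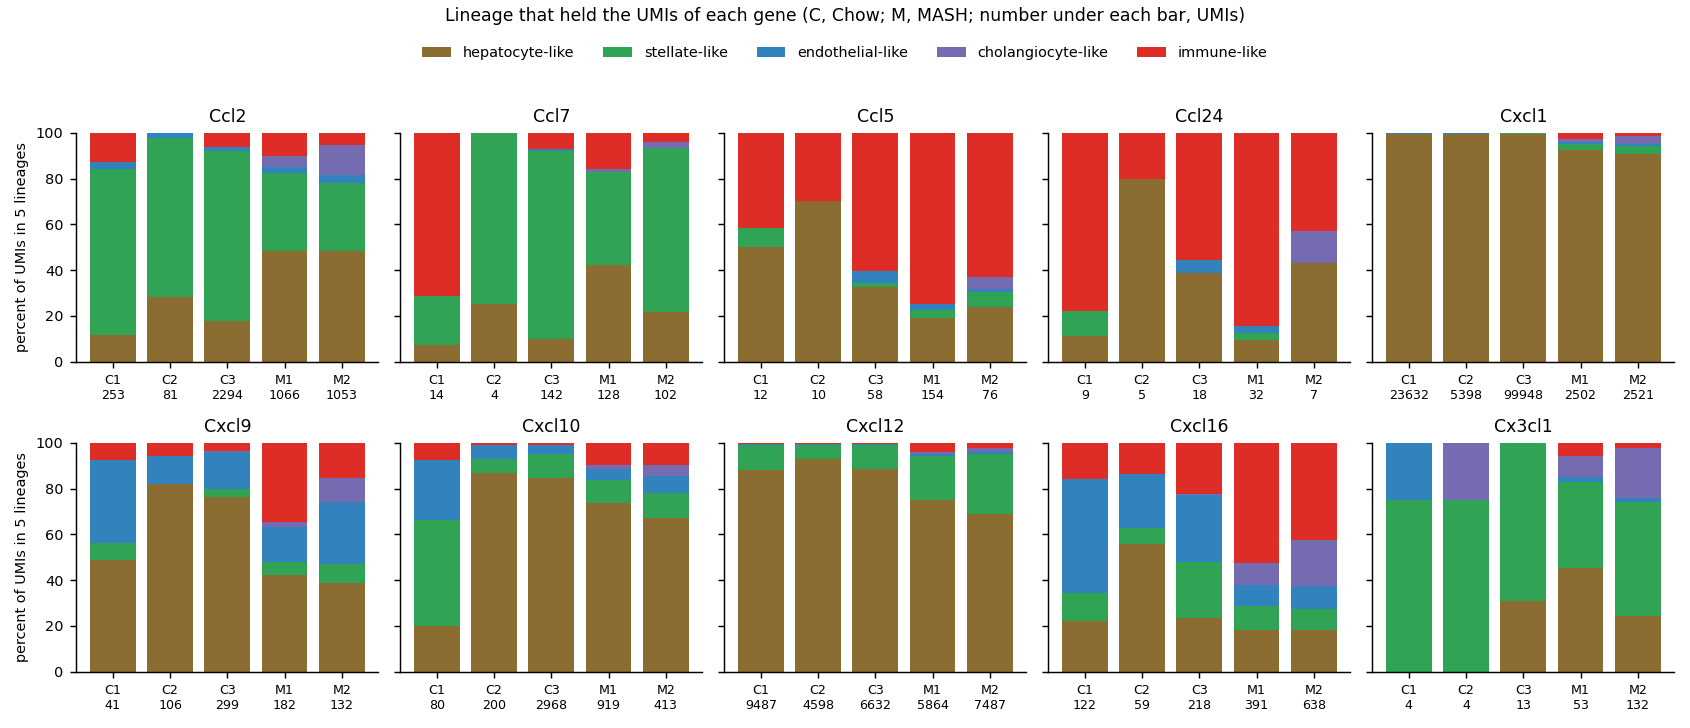
Percent of each gene's UMIs in named nuclei that lay in each of the 5 lineages, as stacked bars from 0 to 100%, for the 3 Chow (C1 to C3) and 2 MASH (M1, M2) libraries, with the number of UMIs under each bar. Cxcl1 is over 90% hepatocyte-like in every library, and the stellate-like part of Ccl2 is 69.1% to 74.2% in chow and 34.0% and 29.8% in MASH. Over the UMIs of all genes, not drawn, the hepatocyte-like part is 94.4%, 97.9% and 96.5% in chow and 80.3% and 78.4% in MASH.

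Counted over the set, diet comparisons called few of these genes. In all nuclei 2 of 10 were called, Cxcl16 and Cx3cl1, both higher in MASH. Of the 16360 genes tested 15.8% were called, 10.5% higher in MASH. In hepatocyte-like nuclei the same pair was called among the 9 genes tested (Ccl24 was too low), against 13.1% of 14892 genes called, 8.65% higher. In macrophage-like nuclei 1 of 4 was called, Cxcl1, lower in MASH, against 1.1% of 5916 genes called, 0.761% lower (the diets did not overlap for 20.7%). In stellate-like nuclei edgeR called 0 of 6 genes against 0.714% of 8259, with Ccl2, Cxcl1 and Cxcl10 at an unadjusted p under 0.05, and DESeq2 also called 0. In endothelial-like nuclei edgeR called 0 of 6 against 0.85% of 8591, with Cxcl1 at an unadjusted p under 0.05, and DESeq2 called 0. In immune-like nuclei edgeR called 0 of 8 against 0.17% of 7659 and in T-like nuclei 0 of 2 against 1.78% of 1012, with Cxcl1 at an unadjusted p under 0.05 in each, and DESeq2 called 1 in each. Without Chow replicate 3, edgeR called 6 of 10 in all nuclei (Ccl2, Ccl7, Ccl5, Cxcl16 and Cx3cl1 higher, Cxcl1 lower). In hepatocyte-like nuclei it called 5 (Ccl2, Ccl7, Ccl5, Cxcl16 and Cx3cl1, all higher). In that setting 2531 of all genes were called in all nuclei, 1524 of them higher, and 2602 in hepatocyte-like nuclei, 1553 higher. With all libraries 2592 and 1949 genes were called.

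The diets did not overlap for 4 of 10 genes in all nuclei, where 50.7% of all genes tested did not overlap, and for 6 of 9 in hepatocyte-like nuclei, where 52.8% did not. These shares are not far from those of all genes and are no result about the chemokines as a set. The share of nuclei with a UMI, thinned to 500 UMIs, was compared for 50 pairs of a gene and a lineage. In 8 of them, among which were Ccl7, Ccl5, Cxcl16 and Cx3cl1 in hepatocyte-like nuclei, the exact two-sided permutation test gave 0.1, the smallest p that 3 against 2 libraries allow, and the smallest adjusted p was 0.625, so this design could not pass the threshold.

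**Figure D5:**
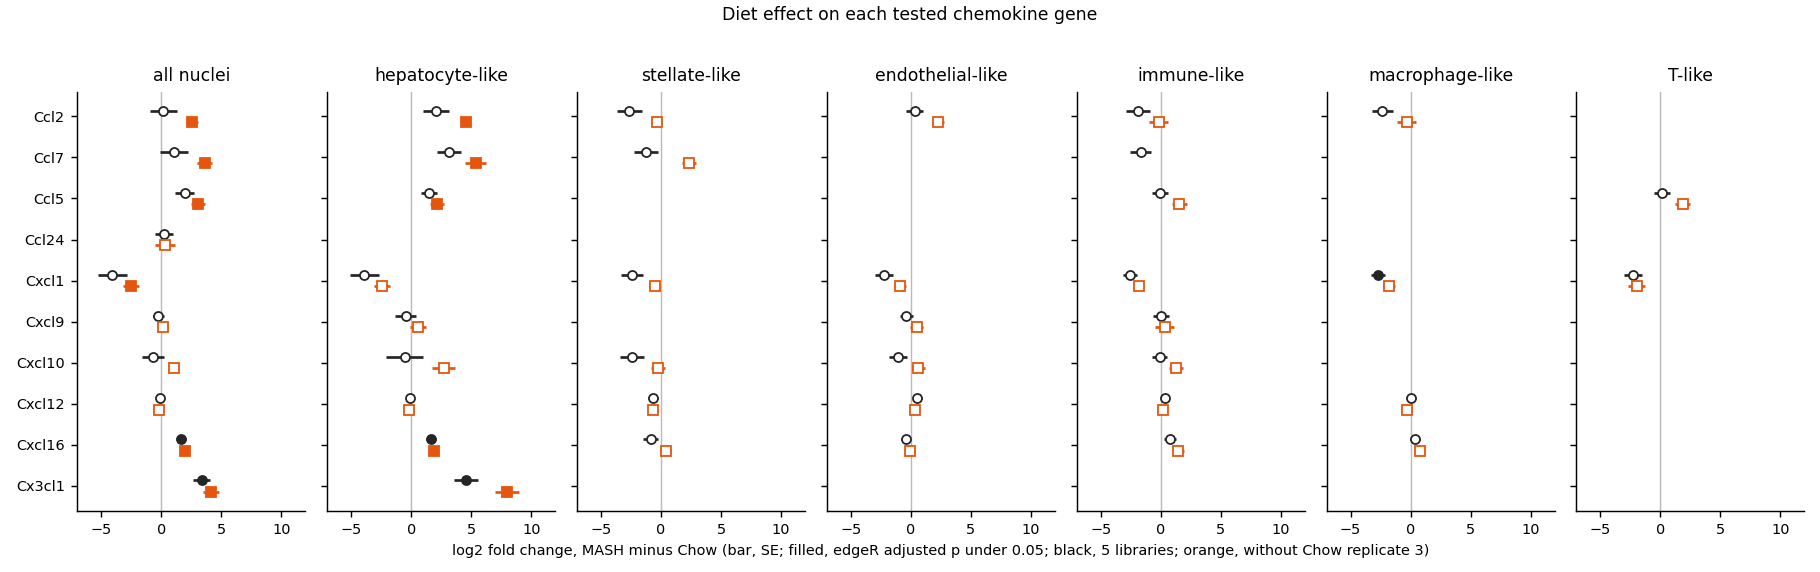
Log2 fold change of the chemokine genes, MASH minus Chow, in all nuclei and in 6 groups of nuclei, with bars of 1 SE and filled points where the edgeR adjusted p was under 0.05. Black points use all 5 libraries and orange points leave out Chow replicate 3. With all libraries Cxcl16 and Cx3cl1 are filled in all nuclei and in hepatocyte-like nuclei and Cxcl1 in macrophage-like nuclei, and without Chow replicate 3 Ccl2 moves from 2.06 to 4.56 in hepatocyte-like nuclei.

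Whether the diet effect differed between lineages was tested in 1 model over the lineage sums with the library as a block. For Cxcl1 the diet effect in hepatocyte-like nuclei was lower than the mean effect in the other lineages by a difference of -1.66 on the log2 scale (SE 0.36, edgeR adjusted p = 0.00411, against 4.57% of 11845 genes called). Cxcl1 in most of these other lineages lay under the median of the hepatocyte markers, as given above. The test cannot tell Cxcl1 made there from free hepatocyte RNA. For Ccl2 the stellate-like effect was lower than the mean of the others by -5.84 (edgeR adjusted p = 1.265e-05, against 0.186% of genes called), and the immune-like effect by -5.16 (edgeR adjusted p = 0.000302, 2.16% called). These values rest on the 0 UMIs of the chow cholangiocyte-like sums, which give that lineage a difference of 12.88 (edgeR adjusted p = 0.0304, 0.118% called). In that model the hepatocyte-like effect on Ccl2 differed from the mean of the others by 0.251 (SE 4.996) and was not called. In chow, Ccl2 in hepatocyte-like nuclei lay within the range of the stellate markers, as given above. The test cannot tell Ccl2 made there from free stellate RNA. Without the cholangiocyte-like sums, an alternative added after the values were seen, the hepatocyte-like effect on Ccl2 was above the mean of the other lineages by 3.67 (SE 0.43, edgeR adjusted p = 1.418e-05, 6.77% of 11574 genes called). It was 3.42 to 3.87 when each library was left out in turn, with an adjusted p of at most 0.00116. In the same model the stellate-like effect on Ccl2 was below the mean of the others by -2.88 (edgeR adjusted p = 0.00546, 0.536% called), a call that was lost without MASH replicate 1 or 2 (edgeR adjusted p = 0.0988 and 0.406). The immune-like effect on Ccl2 was below by -1.96 (edgeR adjusted p = 0.0342, 1.81% called), and this call was lost without Chow replicate 3, MASH replicate 1 or MASH replicate 2 (edgeR adjusted p = 0.0551, 0.487 and 0.374).

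The receptors of these ligands were read as levels in the types of immune-like nuclei and, where tested, in all nuclei. Ccr2, the receptor of Ccl2 and Ccl7, was at 371 CPM in macrophage-like nuclei of chow and 388 CPM in those of MASH when libraries were pooled by diet (215 and 1274 UMIs). In all nuclei Ccr2 rose from 4.45 to 38.7 CPM (mean over libraries, log2 fold change 2.77, edgeR adjusted p = 0.0114). Cx3cr1, the receptor of Cx3cl1, was at 31.1 CPM in pooled macrophage-like nuclei of chow and 146 CPM in MASH (18 and 480 UMIs). It rose from 2.56 to 22.3 CPM in all nuclei (log2 fold change 2.65 by edgeR). Hepatocyte-like nuclei held 90.8% of the Cx3cr1 UMIs in named nuclei in chow and 51.2% in MASH, at pooled levels of 2.48 and 14.2 CPM. Macrophage markers stood there at 0.187% to 1.84% of their macrophage-like level in chow and 1.02% to 4.48% in MASH. Pooled Cx3cr1 lay above that range in both diets, from 18 macrophage-like UMIs in chow. The reason was not tested. Cxcr2, the receptor of Cxcl1, had its highest pooled level in neutrophil-like nuclei, 341 CPM in chow from 55 UMIs and 259 CPM in MASH from 4. These nuclei numbered 195, 1 and 18 in Chow replicates 1 to 3. Hepatocyte-like nuclei held 54.3% of the Cxcr2 UMIs in named nuclei in chow and 63.8% in MASH, at 0.696 and 0.876 CPM. For Cxcr6 they held 72.8% and 20.0%, at 1.08 and 0.592 CPM. Cxcr6, the receptor of Cxcl16, was at 251 and 166 CPM in T-like nuclei of the diets, and Cxcr3 at 62.9 and 35.8 CPM there, from 9 and 19 UMIs.

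The wider families were counted from lists. Of the 26 other chemokine genes listed, 17 could be tested in all nuclei, where 5 were called higher and 1 lower in MASH, against 10.5% of all genes called higher and 15.8% called either way, with a median log2 fold change of 1.18 against -0.03 over all genes. Without Chow replicate 3, an alternative added for the lists after the values were seen, 7 of 16 were called higher and 0 lower by edgeR. In that setting 1524 of all genes were called higher in all nuclei, against 1715 with all libraries. Ccl20, the ligand of Ccr6, was at a mean of 0.00761 CPM in chow and 0.829 CPM in MASH and was called (edgeR adjusted p = 0.0160), though its chow level is near that of a few UMIs and the size of the change is uncertain. Ccl22, made by dendritic cells, was called at means of 0.0252 and 0.527 CPM, Xcl1, made by natural killer and T cells, rose by 3.22 on the log2 scale (edgeR), and Cxcl13, which attracts B cells, fell by 3.33 (edgeR adjusted p = 0.0493). In hepatocyte-like nuclei edgeR called 4 of 9 higher without Chow replicate 3, when 1553 of all genes were called higher (1288 with all libraries). With all libraries 2 of 11 were called higher there (8.65% of all genes were), with a median of 0.58 against -0.02. These were Cxcl14 (log2 fold change 3.14 by edgeR) and Ccl20, which had no UMI there in chow and a mean of 0.565 CPM in MASH. Other chemokine genes tested in stellate-like (4), endothelial-like (2), immune-like (6) and macrophage-like nuclei (5) gave 0 calls by edgeR and by DESeq2, with 1, 0, 0 and 0 of them at an unadjusted p under 0.05.

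Among 17 receptor genes tested in all nuclei 6 were called higher (median 1.22, 10.5% of all genes called higher), led by Ccr2, Ccr6 (log2 fold change 2.73) and Cx3cr1. Of 17 tested without Chow replicate 3, 4 were called higher, when 1524 of all genes were. In hepatocyte-like nuclei Ccr2 was called higher, at means of 0.392 CPM in chow and 5.87 CPM in MASH (log2 fold change 3.47 by edgeR), beside the 388 CPM of macrophage-like nuclei in MASH. Macrophage markers stood in hepatocyte-like nuclei of MASH at 1.02% to 4.48% of their macrophage-like level. In immune-like nuclei edgeR called 0 of 8 receptor genes, with 3 at an unadjusted p under 0.05 and 2 called by DESeq2. Of the 5 proteases that process chemokines, the macrophage elastase Mmp12 was called higher in all nuclei, from a mean of 0.610 to 58.5 CPM (log2 fold change 6.28), and in hepatocyte-like (6.84) and stellate-like nuclei (5.18). It was also called in endothelial-like nuclei, where chow held no UMI and MASH a mean of 49.9 CPM. Mmp12 is a leading gene of the cluster that held most macrophage-like nuclei of MASH. The macrophage markers had medians of 10.98% and 7.954% of their macrophage-like level in stellate-like nuclei of MASH replicates 1 and 2. In endothelial-like nuclei these medians were 11.5% and 6.917%. The part of free macrophage RNA in the Mmp12 of these lineages was not tested.

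Response lists were counted in the same way. Of 17 interferon response genes in all nuclei 4 were called higher and 1 lower (median 0.30, against 15.8% of all genes called either way), the higher ones led by the checkpoint ligand Cd274 (1.78), Gbp3 (1.54) and Psmb9 (1.33), and the lower one was the GTPase Iigp1, which fell from a mean of 698 to 228 CPM (edgeR). In hepatocyte-like nuclei, where 13.1% of all genes were called either way, 3 were higher, Cd274 (1.81), Psmb9 (1.75) and the peptide transporter Tap1 (1.09), and Iigp1 was lower (-2.07). Of the NF-kB response genes edgeR called 0 of 11 in all nuclei and 0 of 10 in hepatocyte-like nuclei, with 2 at an unadjusted p under 0.05 in each, and DESeq2 called 1 and 2. Without Chow replicate 3 edgeR called 5 of 11 and 4 of 10 higher (medians 0.92 and 0.86), when it called 1524 and 1553 of all genes higher. For the 10 acute-phase genes the medians were -2.65 and -2.70, and 1 of them was called in each, the signalling inhibitor Socs3, lower in MASH by -2.63 in both (edgeR adjusted p = 0.0273 and 0.0288). Without Chow replicate 3 these medians were -1.33 and -1.60, with 0 called higher and 3 lower in all nuclei and 1 higher and 4 lower in hepatocyte-like nuclei (edgeR). In that setting 2531 and 2602 of all genes were called either way.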

How the data were processed

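RNA of single nuclei was measured in livers of 3 Chow and 2 MASH libraries, grouped by their titles. What the authors deposited are unnormalised UMI counts of each gene in each nucleus, made with Cell Ranger 8.0.1 on GRCm38 with intronic reads left out. RNA that is still unspliced is therefore counted in part only, and how the counting treated strand is not given in the sources used here. The matrices carry no cell type names, so names were rebuilt and can differ from those of the study.

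A minimum of 300 genes per nucleus was set. Scrublet in scanpy 1.11.5 (python 3.11.15) called 3 nuclei or fewer per library by its own threshold, so the highest scores were removed at 0.8% per 1000 nuclei, which left 7969 to 11574 nuclei per library. They were clustered in Seurat 5.3.0 (3000 variable genes, without chemokine and receptor genes) and named by fixed marker lists, and clusters without a clear lineage stayed unnamed. UMIs were summed per library and lineage and divided by the sum over all genes (CPM). Sums of at least 20 nuclei entered edgeR 4.0.16 (R 4.3.3, quasi-likelihood, TMM, low genes filtered, diet as the only term, two-sided), with Benjamini-Hochberg adjustment over all genes tested and a threshold of 0.05. The edgeR fits of diet and of lineage by diet were tested on simulated counts, and the clustering and naming of nuclei were not. Intervals are exact 95% Poisson intervals. Coordinates came from GENCODE M21 and promoters from RefSeq, which matched 5 of the 10 genes. For these UMI counts the libraries held 35612373 to 49137377 UMIs each, so precision is limited by the sparse genes and by the number of libraries.

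The chemokine genes and the context lists were chosen with earlier results of these data known. Named were all 10 genes, up to 3 genes called higher and 3 called lower from each context list, and the 3 genes with the closest pattern. Alternatives were DESeq2 1.42.0, RLE size factors, no filter on low counts, a replicate block, Storey q-values, doublets kept, nuclei over 5% mitochondrial UMIs left out, lineages by 1 marker group per nucleus, and each library left out in turn. Results of 1 listed gene are not reported here.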

Additional observations from a re-analysis of the deposited data

Results flagged for a closer look

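The diet effect on Cxcl1 and Ccl2 differed between lineages by the test of the difference itself, in 1 edgeR model over the lineage sums with the library as a block. Each value below is the diet effect (log2, MASH minus Chow) in the named lineage minus the mean effect in the other lineages. With 5 lineages it was -1.656 for Cxcl1 in hepatocyte-like nuclei (edgeR adjusted p = 0.00411), and that call was lost without MASH replicate 1 (edgeR adjusted p = 0.250) or 2 (edgeR adjusted p = 0.0611). This test cannot tell Cxcl1 made in the other lineages from free hepatocyte RNA, since most of its levels there lay under the median of the hepatocyte markers. In hepatocyte-like nuclei the difference for Ccl2 was 0.251 (SE 4.996) with 5 lineages and was not called. For Ccl2 the difference was -5.838 in stellate-like nuclei (edgeR adjusted p = 1.265e-05), -5.16 in immune-like nuclei (edgeR adjusted p = 0.000302) and 12.88 in cholangiocyte-like nuclei (edgeR adjusted p = 0.0304). The last is no measure of size, since the 18, 9 and 44 cholangiocyte-like chow nuclei held no Ccl2 UMI, and it enters the mean that the other lineages are set against. It was lost without Chow replicate 3 (edgeR adjusted p = 0.644), MASH replicate 1 (0.0820) or MASH replicate 2 (0.165).

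With the cholangiocyte-like sums left out, an alternative chosen after seeing the data, the difference for Ccl2 was 3.673 in hepatocyte-like, -2.877 in stellate-like and -1.959 in immune-like nuclei (edgeR adjusted p = 1.418e-05, 0.00546 and 0.0342). Ccl2 in hepatocyte-like chow nuclei lay within the range of the stellate markers, and this test cannot tell it there from free stellate RNA. The stellate-like call was lost without MASH replicate 1 or 2 (edgeR adjusted p = 0.0988 and 0.406), and the immune-like call without Chow replicate 3, MASH replicate 1 or MASH replicate 2 (edgeR adjusted p = 0.0551, 0.487 and 0.374). For Cxcl1 in hepatocyte-like nuclei it was -1.347 (edgeR adjusted p = 0.0354), lost without MASH replicate 1 or 2 (edgeR adjusted p = 0.450 and 0.227). Cxcl16 in hepatocyte-like nuclei gave 1.691 (edgeR adjusted p = 0.00630). That call was lost without Chow replicate 3 (1.197, edgeR adjusted p = 0.0671), MASH replicate 1 (1.79) or MASH replicate 2 (1.518). With the cholangiocyte-like sums kept, the Cxcl16 difference was 0.843 and was not called (edgeR adjusted p = 0.4496). The hepatocyte-like level of Cxcl16 lay inside the range of macrophage markers in Chow replicates 1 and 3 and both MASH libraries. Chow replicate 2 gave no such value. This test cannot tell Cxcl16 made in hepatocyte-like nuclei from free macrophage RNA. The hepatocyte-like value for Ccl2 passed with each library left out in turn.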

How the results depend on the processing

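Of the 45 log2 fold changes of the chemokine genes, the fit with a replicate block turned the direction of 13, and leaving out Chow replicate 3 turned 11 of the 44 it could give. Same-numbered libraries did not deviate from their diet means together, at correlations of -0.0421 to -0.531 over 2 pairs. The deviations of the 2 MASH libraries are opposite by construction, so the pairs are not separate checks. With the block, which drops Chow replicate 3 from the contrast, 6 of the 10 chemokine genes were called in all nuclei and 6 in hepatocyte-like nuclei, against 2 and 2 without it, 0 in macrophage-like nuclei against 1, and Cxcl10 was at 0.99 in all nuclei, 3.03 in hepatocyte-like nuclei and Ccl2 at 0.060 in macrophage-like nuclei. Over all genes, the block moved the number called to 1842 in all nuclei (2592 without it), 2350 in hepatocyte-like (1949) and 44 in macrophage-like nuclei (65). It moved that number to 77 in stellate-like (59), 4 in endothelial-like (73), 0 in immune-like (13) and 9 in T-like nuclei (18).

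When each library was left out in turn, the log2 fold change of Ccl2 in all nuclei ran from -0.38 (without Chow replicate 2) to 2.56 (without Chow replicate 3). Cxcl10 ran from -1.26 to 1.03 in all nuclei and from -1.50 to 2.69 in hepatocyte-like nuclei, in both from without MASH replicate 1 to without Chow replicate 3. Cxcl12 ran from -0.35 to 0.15 in all nuclei and from -0.34 to 0.23 in hepatocyte-like nuclei, from without Chow replicate 2 to without Chow replicate 1. Cxcl16 in macrophage-like nuclei ran from -0.061 (without MASH replicate 2) to 0.79 (without Chow replicate 3), and Ccl5 in T-like nuclei from -0.49 (without Chow replicate 1) to 1.85 (without Chow replicate 3).

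Chemokine genes called, with each library left out, ranged from 0 (MASH replicate 2) to 6 (Chow replicate 3) in all nuclei, from 0 (MASH replicate 1) to 5 (Chow replicate 3) in hepatocyte-like, from 0 (Chow replicate 3) to 2 (Chow replicate 2) in macrophage-like and from 0 to 1 in endothelial-like, immune-like (both Chow replicate 2) and T-like nuclei (Chow replicate 1). With nuclei over 5% mitochondrial UMIs left out, 1 was called in all nuclei, 1 in hepatocyte-like and 2 in macrophage-like nuclei. In hepatocyte-like nuclei DESeq2, Storey q-values and no filter on low counts each called 4, and RLE size factors 1. DESeq2 called 1 in immune-like and 1 in T-like nuclei, against 0 by edgeR. Without the filter 3 were called in stellate-like, 1 in endothelial-like, 2 in immune-like and 2 in macrophage-like nuclei.

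Over all genes, 2592 were called in all nuclei, 4387 by DESeq2, 5178 by Storey q-values, and 305 (without MASH replicate 2) to 3448 (without Chow replicate 1) with a library left out. In hepatocyte-like nuclei 1949 were called, 3370 by DESeq2, 4048 by Storey q-values, and 140 (without MASH replicate 2) to 2779 (without Chow replicate 1). Of the 59 in stellate-like nuclei, DESeq2 made 145, no filter 534, doublets kept 97, the mitochondrial limit 35, 1 marker group per nucleus 137, and a library left out 6 to 106. The 73 in endothelial-like nuclei became 344 with no filter, 41 with the mitochondrial limit and 28 to 116 with a library left out. The 13 in immune-like nuclei became 106 by DESeq2, 7 with RLE size factors, 525 with no filter, 37 by Storey q-values, 29 with the mitochondrial limit, 130 with 1 marker group and 0 to 70 with a library left out. The 65 in macrophage-like nuclei became 119 by DESeq2, 334 with no filter, 115 with the mitochondrial limit and 16 to 106. The 18 in T-like nuclei became 31 by DESeq2, 34 with no filter and 14 to 57. DESeq2 lowered the share of calls that were higher in MASH from 66.2% to 55.7% in all nuclei and from 66.1% to 53.3% in hepatocyte-like nuclei, and it was 87.2% and 86.2% in all nuclei without MASH replicates 1 and 2.

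In the model of lineage by diet, leaving out a library gave 118 to 994 calls in hepatocyte-like (541 with all), 1 to 74 in stellate-like (22), 0 to 12 in endothelial-like (14), 0 to 10 in cholangiocyte-like (14) and 36 to 163 in immune-like nuclei (256). No filter gave 84 in stellate-like and 26 in endothelial-like nuclei, RLE size factors 7 in endothelial-like and 7 in cholangiocyte-like nuclei, doublets kept 34 in stellate-like nuclei, and the model without cholangiocyte-like sums, chosen after seeing the data, 62 there. Hepatocyte-like nuclei were the largest source in MASH for 5 of 10 genes, for 8 with the mitochondrial limit and for 3 by 1 marker group per nucleus. The diet test in cholangiocyte-like nuclei and its alternatives were not run, since 1 chow library held the 20 nuclei needed. The cause of these changes was not tested. Low UMI numbers limit Ccl24, Ccl7, Ccl5 and Cx3cl1, and 2 MASH libraries limit all tests. Of these 2, replicate 1 had the highest median mitochondrial share of all libraries.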

Other observations

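Over the 25 sums of 5 lineages and 5 libraries, the genes whose log2(CPM + 1) followed each chemokine most closely were listed as a description, among 14658 genes. The sums of a library share its depth and free RNA, and high values rest on few lineages. For Cxcl1 they were Bcl3 (Pearson's r = 0.909), a nuclear partner of NF-kB, Snhg3 (0.866) and Junb (0.860), a stress-induced transcription factor. For Ccl2 they were Adamtsl4 (0.881), Gbp2 (0.878), an interferon-induced guanylate-binding protein, and Fam118a (0.874), and for Ccl7 Fosb (0.866), Pygm (0.859) and Gpr153 (0.842). Cxcl16 was followed by Vcam1 (0.964), the adhesion receptor of the endothelium, Hivep3 (0.941) and Me2 (0.940).

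Ccl5 was followed by Clec4a3 (0.956), Fcgr1 (0.951) and Emilin2 (0.945), genes of myeloid cells, although among immune-like nuclei the T-like nuclei were its highest site. For Cxcl9 the closest were Cd55 (0.894), Cd38 (0.870) and Clec1b (0.858), for Cxcl10 Nmi (0.852), Gbp7 (0.846) and Nid1 (0.828), for Cxcl12 Olfr1029 (0.900), Lrrn3 (0.896) and Masp1 (0.888), and for Cx3cl1 BC034090 (0.912), Tmem136 (0.903) and Magi2 (0.889). Ccl24 had too few UMIs for such a list.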
